A study of Mus musculus with 6 samples.

Results

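The CCN family of matricellular proteins was followed in SVI cells, a mouse podocyte line immortalized in a conditional way, with and without mechanical stretch. Members were all probe sets that the platform annotation gives to Ccn1 (formerly Cyr61), Ccn2 (Ctgf), Ccn3 (Nov), Ccn4 (Wisp1) or Ccn5 (Wisp2) alone, and not to any second gene. These were 5 of 18193 genes and 10 of 45037 probe sets. The unstretched group held 3 arrays of differentiated cells at rest, and the stretched group held 3 arrays of differentiated cells exposed for 3 days to cyclic biaxial stretch at 0.5 Hz with up to 5% linear strain. All cells had been differentiated at 38 °C in RPMI medium with 10% serum for 1 to 2 weeks. The series names 3 batches but does not tie arrays to them, so the array-to-array spread behind each p-value may be technical in part.

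CCN proteins are secreted and act in the space around the cell. They are built from modules that resemble an IGF-binding protein, the von Willebrand factor type C repeat, the thrombospondin type 1 repeat and a C-terminal cystine knot, and through these they bind integrins, heparan sulfate, matrix proteins and growth factors. Ccn5 lacks the C-terminal cystine knot. Ccn1 and Ccn2 are widely used as readouts of the YAP and TEAD transcription factors and also respond to SRF and TGF-beta, Ccn4 and Ccn5 were first found as genes induced by Wnt-1, and Ccn2 is known in kidney glomeruli for its link with matrix accumulation.

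Values are log2 expression values, and a change is the stretched mean minus the unstretched mean on that scale. A probe set was called where the limma p-value, adjusted over all probe sets by the Benjamini-Hochberg method, was under 0.05. Of the 10 family probe sets 4 were called, against 11.0% of all probe sets tested. Of these, 2 were higher in stretched cells (6.47% of all probe sets were called higher) and 2 were lower (4.51% were called lower). They were the probe set of Ccn5 (higher), 1 of the 2 of Ccn3 (lower), and 2 of the 4 of Ccn1, which moved in opposite directions. The groups did not overlap in 5 of the 10, against 29.5% of all probe sets. Among the 6 others, which did not pass, those of Ccn2 and Ccn4 and 1416039_x_at of Ccn1 had means that were higher with stretch. The means of 1442340_x_at of Ccn1 and 1426851_a_at of Ccn3 were lower. The shares over all probe sets include dim ones, while all family probe sets but those of Ccn3 lay above the median level. In a fit of only the probe sets at or above the median level, 4987 were called, a larger share than the 11.0% above. The part of level in the family count was not tested.

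**Figure D1:**
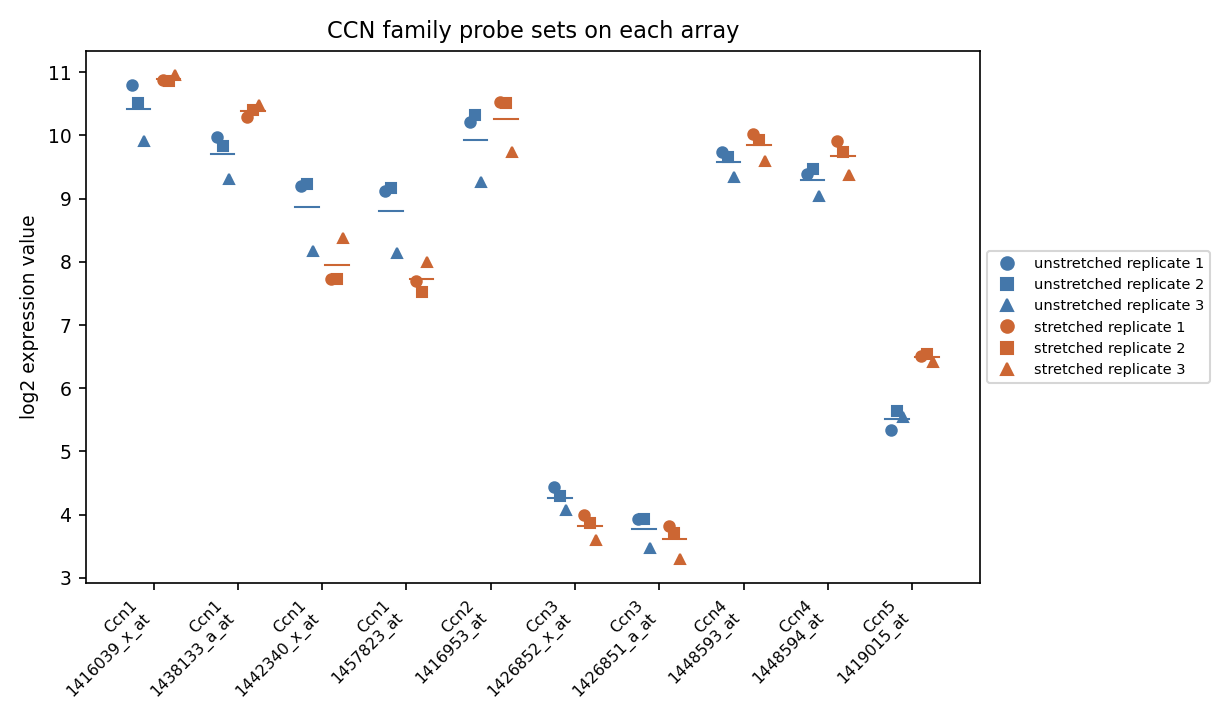
Log2 expression value (vertical axis) of each of the 10 CCN family probe sets on each array, with unstretched arrays in blue, stretched arrays in orange, a marker shape for each replicate number and a line at each group mean. Ccn5 is separated between the groups. The Ccn1 probe sets 1442340_x_at and 1457823_at lie lower in stretched cells while 1416039_x_at and 1438133_a_at lie higher. The replicate 3 array is the lowest of its group for Ccn2, Ccn3 and Ccn4.

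Across the series, array means of the log2 values were 5.70 on every array and array medians ran from 4.92 to 4.98. Correlations between arrays were 0.993 to 0.997 within a group and 0.987 to 0.990 between groups. The log2 gap of the beta-actin probe sets at the 3′ and 5′ ends, a sign of RNA quality, differed between the groups by -0.27. The groups did not overlap (1.57 ± 0.03 unstretched, 1.30 ± 0.05 stretched, SD, n = 3 each). The two-sided exact permutation p of 0.1 is the smallest this design allows. The gap of the Gapdh probe sets differed by -0.09, with overlapping groups (0.25 ± 0.07 and 0.16 ± 0.10, exact permutation p = 0.4). Of the podocyte markers 15 were measured, and 7 of them lay under the median gene in level. Nephrin (Nphs1) had a mean of 4.96 and Wt1 one of 6.72, and the brightest were Actn4 (11.93) and Cd2ap (10.40). Of the 15 podocyte markers 1 rose (Nes) and 2 fell (Clic5 and Synpo). In this fit with 1 probe set per gene, 14.7% of all genes were called. All 6 endothelial markers lay below the median gene and none was called (limma adjusted p 0.459 to 0.945, with 0 at an unadjusted p under 0.05). Of 6 macrophage markers 1 rose (Cd14) and 2 fell (Cd68 and Csf1r). The macrophage list had mean levels of 6.11 to 6.19 in unstretched and 5.93 to 6.05 in stretched arrays. The fibroblast list (1 of 6 fell, decorin) had mean levels of 4.92 to 4.99 and 4.68 to 4.75, the tubule list (1 of 7 rose, 0 without unstretched replicate 2 or stretched replicate 1) 5.95 to 5.99 and 6.11 to 6.17, and the mesangial list (1 of 5 rose, 2 without unstretched replicate 1 or with arrays centred on their medians) 5.68 to 5.73 and 5.78 to 5.90, all unstretched and then stretched. Of the tubule markers 5 lay below the median gene, while Cdh16 and Lrp2 had means of 10.71 and 10.10. The part of RNA quality and of these markers in the results below was not tested.

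Ccn5 rose with stretch. It is the family member without the cystine knot, and in smooth muscle it is known as an inhibitor of growth. Its single probe set, 1419015_at, read 5.34, 5.65 and 5.54 in unstretched replicates 1, 2 and 3 and 6.51, 6.54 and 6.42 in the stretched ones. Every stretched array thus lay above every unstretched array, and the gap between the groups was wider than either group's range. The means were 5.51 ± 0.16 and 6.49 ± 0.06 (SD, n = 3 each), 1.98-fold apart. In log2 the rise was 0.98 (SE 0.10), its 95% interval ran from 0.76 to 1.20, and limma gave an adjusted p of 3.5e-04. This change exceeded those of 99.5% of all probe sets. The call held in each of the 6 fits with an array left out, with changes of 0.90 to 1.05 and adjusted p of 0.0012 to 0.0030. Each array read RNA of a whole culture of a single line. A change in the number of cells of a kind and a change in RNA per cell therefore cannot be told apart, here and in what follows. The mean of the Ccn5 probe set over all arrays was above the median of the probe set means, 4.95, but signal over background is unknown here.

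**Figure D2:**
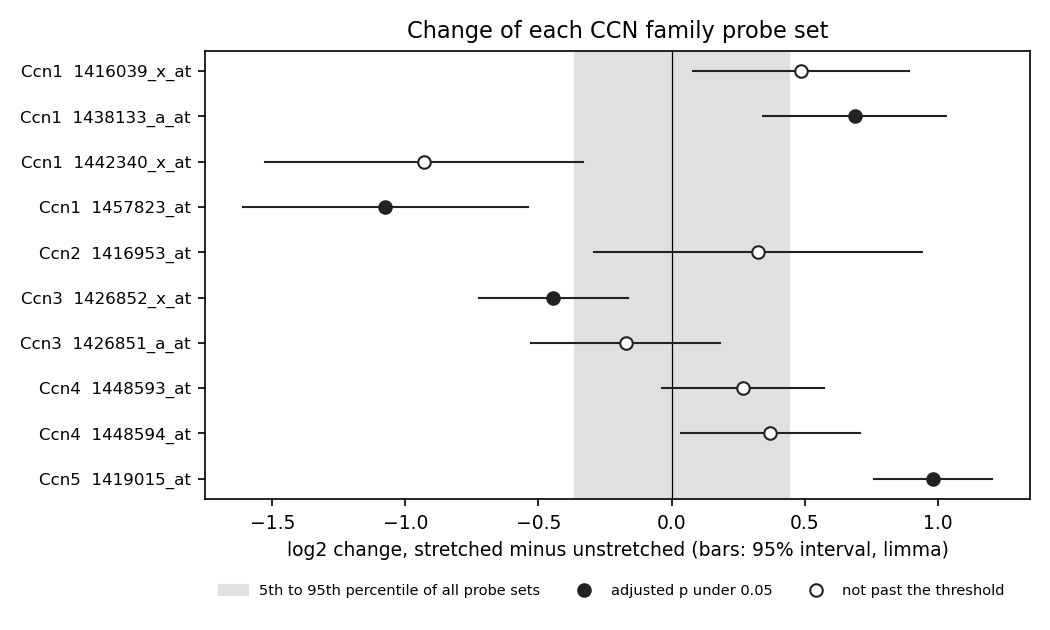
Log2 change (horizontal axis, stretched minus unstretched) of each family probe set with its 95% interval from limma. Filled points passed the adjusted threshold of 0.05 and the grey band spans the 5th to 95th percentile of the changes of all probe sets, -0.36 to 0.44. Ccn5 (0.98) and the Ccn1 probe set 1457823_at (-1.07) lie farthest from 0 on either side.

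Ccn1 encodes a heparin-binding, integrin-binding matrix protein that is also an immediate early gene, switched on quickly by serum, shear and stretch. It was read by 4 probe sets, and these did not move together. In the Affymetrix naming, the suffix _a_at marks probes that read several transcripts of 1 gene, and _x_at marks probes that may also bind unrelated transcripts. The platform annotation gives 1442340_x_at and 1457823_at the same source sequence and the other two different ones. Where the probes lie in the transcript is not analysed here.

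The probe set 1438133_a_at read 9.97, 9.84 and 9.30 in unstretched replicates 1, 2 and 3 and 10.29, 10.40 and 10.49 in stretched replicates 1, 2 and 3. All stretched values were above all unstretched values, and unstretched replicate 3 was the lowest. Stretch went with a gain of 0.69 in log2 (SE 0.15) or 1.61-fold, with a 95% interval of 0.34 to 1.03 and an adjusted p of 0.0182 in limma. With stretched replicate 2 left out the adjusted p was 0.0583, and with stretched replicate 3 left out 0.0629, which ended the call. Without both replicate 3 arrays, a setting chosen after the data were seen, the change was 0.44 (adjusted p = 0.0506).

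The brightest Ccn1 probe set, 1416039_x_at, gave 10.80, 10.52 and 9.92 in unstretched and 10.88, 10.85 and 10.96 in stretched cells. The groups did not overlap, but unstretched replicate 1 came close to the stretched arrays and the unstretched arrays were spread widely (10.41 ± 0.45 against 10.90 ± 0.05, SD, n = 3 each). The change of 0.49 (SE 0.18) did not pass (limma adjusted p = 0.127). It passed without unstretched replicate 1 (0.68, adjusted p = 0.0354) and was 0.24 (adjusted p = 0.213) without unstretched replicate 3.

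Both probe sets of the shared source sequence read lower in stretched cells. For 1457823_at the unstretched values were 9.12, 9.17 and 8.14 and the stretched values 7.69, 7.52 and 7.99. Unstretched replicate 3 lay close to stretched replicate 3, far below the other unstretched arrays, and the groups still did not overlap. By limma this was a log2 change of -1.07 (SE 0.24), or 2.11-fold lower, with a 95% interval of -1.61 to -0.54 and an adjusted p of 0.0180. It was below those of all but 0.25% of probe sets. Leaving out unstretched replicate 1 (adjusted p = 0.0696), unstretched replicate 2 (0.0721), stretched replicate 1 (0.0635) or stretched replicate 2 (0.0684) ended the call. Its partner 1442340_x_at read 9.20, 9.23 and 8.18 and then 7.72, 7.73 and 8.38, so that stretched replicate 3 was above unstretched replicate 3. Its change of -0.93 (SE 0.27) narrowly missed the threshold (limma adjusted p = 0.0529). It passed at -1.28 (adjusted p = 0.0035) when unstretched replicate 3 was left out, at -1.15 (0.0339) when stretched replicate 3 was, and at -1.49 (5.3e-04) when both were. It also passed when quantile normalized again (0.0425), with cyclic loess (0.0493) and over bright probe sets alone (0.0449). It did not pass with arrays centred on their medians (0.0562), with another prior (0.128) or with any other single array left out (0.159 to 0.174).

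The unequal change within Ccn1 was described by the difference between probe sets on the same array, a comparison chosen after their values were seen and given with no test. The brightest probe set minus 1457823_at was 1.68, 1.34 and 1.78 on the unstretched arrays and 3.19, 3.33 and 2.96 on the stretched arrays. The groups lay apart, with a change of 1.56 in the difference (1.60 ± 0.23 to 3.16 ± 0.19, SD, n = 3 each). Taken as the mean of the 2 other probe sets minus the mean of the 2 of shared source, the change was 1.59. Of the 746 genes with at least 2 called probe sets, 27 (3.62%) had calls in both directions, and Ccn1 was among them. The mean of all 4 Ccn1 probe sets had a log2 change of -0.21 (limma adjusted p = 0.570 over all genes), so the sign of the Ccn1 change depended on which probe sets were read.

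**Figure D3:**
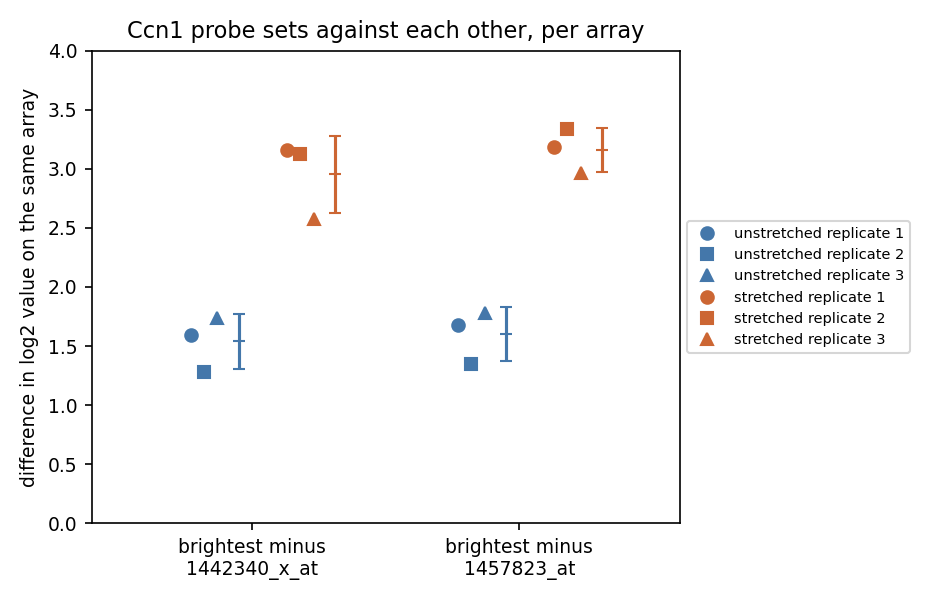
Difference in log2 value on the same array (vertical axis) between the brightest Ccn1 probe set, 1416039_x_at, and each of the 2 probe sets that share a source sequence. Points are arrays, and bars beside them give the mean and SD of each group (n = 3). In both pairs the 3 stretched arrays lie above the 3 unstretched ones, by 1.41 for 1442340_x_at and 1.56 for 1457823_at.

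The Ccn1 promoter is shown as the 1 member promoter matched in the table of RefSeq sequences used here (mouse assembly GRCm38.p6). The promoters of the other members were not analysed here. The 250 bases before the transcription start lie at chr3:145649986-145650235 on the minus strand, and capitals mark, from left to right, the TEAD, CRE-type and TATA box matches, which do not overlap:
Ccn1 promoter: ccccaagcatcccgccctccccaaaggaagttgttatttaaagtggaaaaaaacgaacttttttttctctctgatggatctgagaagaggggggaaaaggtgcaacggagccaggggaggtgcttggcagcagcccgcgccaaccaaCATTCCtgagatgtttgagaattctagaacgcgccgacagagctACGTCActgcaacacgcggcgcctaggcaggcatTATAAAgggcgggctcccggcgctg

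Motifs were searched as letters on both strands. The TEAD motif GGAATG was found once, on the opposite strand, at 103 to 98 bases before the start, and 12.6% of 32851 promoter windows of the same length held it. The CRE-type motif TGACGT was found once on the opposite strand, at 59 to 54 bases before the start (6.47% of windows), and the TATA box letters TATAAA once on the gene's strand, at 25 to 20 bases before it (12.4%). No match was found to the AP-1 motif TGANTCA (6.75%), the SMAD motif CAGACA (17.1%) or the CArG box of SRF (1.47%). These are matches of letters in this window and no measure of binding.

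Ccn2, a cysteine-rich partner of TGF-beta signalling, had a higher mean with stretch, but the difference was within the spread of the arrays. Its probe set 1416953_at read 10.21, 10.32 and 9.27 in unstretched replicates 1, 2 and 3 and 10.53, 10.52 and 9.73 in the stretched ones. In each group replicate 3 was the low array, and stretched replicate 3 lay below unstretched replicates 1 and 2. The fitted change of 0.32 (SE 0.28) had a 95% interval of -0.29 to 0.94, and limma gave an adjusted p of 0.528. The interval therefore holds no change and also a rise of up to 1.92-fold. Without unstretched replicate 3 the change was -0.0084, and without stretched replicate 3 it was 0.59 (adjusted p = 0.240). At each replicate number, however, the stretched array read above the unstretched one. Taking these numbers as a block, which no label ties to batches, narrowed the SE to 0.092. The limma adjusted p of that block fit, 0.0529, was just over the threshold. Size and sign thus varied with the arrays kept, and the narrower SE rests on numbers not known to be pairs.

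Ccn4, which binds the proteoglycans decorin and biglycan, was likewise higher on average without passing. Its 2 probe sets have 1 source sequence. Its brighter probe set, 1448593_at, gave 9.74, 9.65 and 9.35 in unstretched and 10.03, 9.93 and 9.59 in stretched cells. The other, 1448594_at, gave 9.39, 9.47 and 9.04 and then 9.91, 9.75 and 9.37. Replicate 3 was again the lowest array of each group, and in both probe sets stretched replicate 3 fell inside the range of the unstretched arrays. The log2 changes were 0.27 (SE 0.14, 95% interval -0.04 to 0.57, limma adjusted p = 0.265) and 0.37 (SE 0.15, 95% interval 0.03 to 0.71, adjusted p = 0.160). Both had the same sign in each fit with an array left out, at 0.15 to 0.40 and 0.24 to 0.52, and none of these fits called either. With the replicate number as a block, which no label ties to batches, 1448594_at was called (limma adjusted p = 0.0308) and 1448593_at was not (0.0739).

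Ccn3, which opposes several effects of Ccn2 and binds Notch1 and connexin 43, had lower means with stretch in both of its probe sets, which also have 1 source sequence. The probe set 1426852_x_at read 4.43, 4.29 and 4.07 in unstretched and 3.99, 3.87 and 3.60 in stretched cells. The groups did not overlap, though stretched replicate 1 came close to unstretched replicate 3. The level was 1.36-fold lower, or -0.44 in log2 (SE 0.13) with a 95% interval of -0.72 to -0.16, just past the threshold in limma (adjusted p = 0.0492). The second probe set, 1426851_a_at, gave 3.94, 3.94 and 3.47 and then 3.82, 3.71 and 3.30. Its groups overlapped, with a change of -0.17 (SE 0.16, limma adjusted p = 0.566). In both probe sets replicate 3 was the lowest array of each group.

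The Ccn3 call is the one that most settings ended. Both Ccn3 probe sets had means (4.04 and 3.70) below the median of all probe sets, so their values can be background. The call held without unstretched replicate 3 (limma adjusted p = 0.0284), with another prior (0.0256) and with 1 probe set per gene (0.0342). It also held with the replicate number as a block (0.0110), which no label ties to batches. The call ended with arrays centred on their medians (adjusted p = 0.0642), quantile normalized again (0.0676) or aligned by cyclic loess (0.0714). Leaving out unstretched replicate 1 (0.144) or 2 (0.124) or any stretched replicate (0.0552, 0.102 and 0.159 in order) also ended it, as did averaging both probe sets (-0.31, adjusted p = 0.181) or leaving out both replicate 3 arrays (0.0568). The remaining family gene of the mouse, Ccn6 (Wisp3), was read by the single dim probe set 1444050_at, with means of 4.34 ± 0.02 and 4.27 ± 0.10 (SD, n = 3 each) and a change of -0.06 (SE 0.09, limma adjusted p = 0.720).

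**Figure D4:**
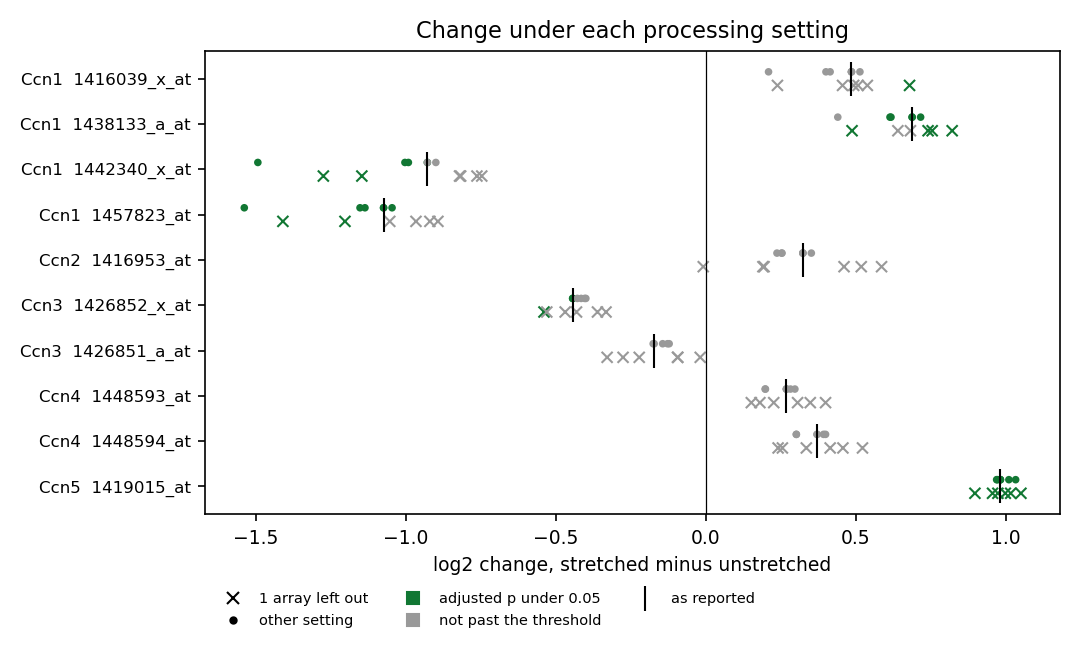
Log2 change (horizontal axis, stretched minus unstretched) of each family probe set in each fit with 1 array left out (crosses) and under other scalings, filters and priors (dots), with the reported value as a vertical bar and calls at an adjusted p under 0.05 in green. All Ccn5 points are green and lie between 0.90 and 1.05, while the Ccn2 points run from -0.0084 to 0.59 and none is green.

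The changes of the members were compared in all 10 pairs, by the difference between 2 members on the same array (brightest probe set of each). In 5 pairs the stretched and unstretched differences did not overlap, each with a two-sided exact permutation p of 0.1 (0.2 adjusted over the 10 pairs), which is the smallest this design allows and cannot pass. These were every pair with Ccn3 and the pair of Ccn4 with Ccn5, so 4 of the 5 rest on a Ccn3 probe set whose values can be background. With all probe sets of a gene averaged, the change of Ccn1 exceeded that of Ccn3 by 0.10 in place of 0.93, with overlapping arrays. The fitted difference between Ccn5 and Ccn4 was 0.71. Against Ccn2 and Ccn1 the excess of Ccn5 was 0.66 (exact permutation p = 0.3, adjusted 0.429) and 0.50 (p = 0.2, adjusted 0.333), with overlapping arrays. The excess over Ccn1 was 1.19 with probe sets averaged, where the groups no longer overlapped, 0.22 without unstretched replicate 1 and 0.76 without unstretched replicate 3. The excess over Ccn2 was 0.44 without unstretched replicate 1, 0.43 without stretched replicate 3 and 1.01 without unstretched replicate 3. The changes of Ccn2 and Ccn4 differed by 0.05 (exact permutation p = 0.8, adjusted 0.8), a difference whose sign turned without unstretched replicate 3 or stretched replicate 2.

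As a description of likeness, profiles over the 6 arrays were centred on their own means and compared by root mean square distance in log2 units, 1 probe set per gene, over 16391 named genes. The genes nearest to Ccn5 were Runx1, a transcription factor (distance 0.07), the dehydrogenase Dhrs1 (0.08) and the kinase Taok3 (0.10), with log2 changes of 0.96, 0.94 and 1.02. With all probe sets of a gene averaged, Runx1 had a change of 0.43 and Taok3 one of 0.58. Nearest to Ccn1 (1416039_x_at) were Mir22hg, the host transcript of miR-22 (0.06), Id3, an inhibitor of helix-loop-helix factors (0.09), and the isoprenoid enzyme gene Fdps (0.10). Their unstretched replicate 3 values were the lowest of the 6, as for Ccn1. Such likeness, and that of the changes given here, follows from picking genes by these same values. For Ccn2 they were the transcription factor Klf5 (0.14), Nxpe4 (0.14) and Gtpbp10 (0.15), all low in both replicate 3 arrays, with changes of 0.09, 0.23 and 0.27. The 3 nearest to Ccn3 were Gsto1, Gal3st2 and Dclre1a (each 0.05, changes of -0.51, -0.38 and -0.49), and those nearest to Ccn4 were the endoplasmic reticulum stress factor Atf6, Tpst2 and Smg5 (0.05, 0.05 and 0.06, changes of 0.28, 0.19 and 0.20). With probe sets averaged, Gsto1 had a change of -0.25, Dclre1a one of -0.18, Atf6 one of 0.04 and Smg5 one of 0.09. On the chromosome, 2 of the 10 nearest measured protein-coding neighbours of the members were called in the fit with 1 probe set per gene, near the 14.7% of all genes called there. Ddah1, beside Ccn1, rose by 0.71 (SE 0.09), and Ndrg1, beside Ccn4, fell by 0.69 (SE 0.09) on the log2 scale.

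Genes that work with the family were taken from lists chosen with earlier results of these data known, so their counts only describe the lists. They were tested with 1 probe set per gene, the brightest. The share called among all genes in that fit, in either direction, was 14.7%, and the median log2 change was -0.02. With only genes at or above the median level 2718 were called, a larger share. Some lists hold mostly such genes, with 20 of 21 Hippo, YAP and TEAD components and 19 of 22 YAP and TEAD targets. The part of level in the list counts was not tested. Among CCN receptors and coreceptors 4 of 17 rose, 4 fell and 9 did not pass (median -0.04). The integrin subunit Itgb2, part of the leukocyte receptor for Ccn1 and Ccn2, fell by 2.12 (SE 0.08). The integrin subunit Itgam, also listed, lay below the median gene (mean 3.76) and did not pass (change of -0.03, limma adjusted p = 0.873). Itga6, a subunit of the laminin-binding integrin that Ccn1 also uses, fell by 1.19 (SE 0.15). The receptor tyrosine kinase Fgfr2 fell by 0.50 (SE 0.09), while syndecan 4 (Sdc4), a heparan sulfate coreceptor, rose by 0.46 (SE 0.08), all on the log2 scale. The 4 receptors called higher became 1 or 2 in each fit with an array left out other than unstretched replicate 3. The count of called receptors dropped from 8 to 5 without unstretched replicate 2 or stretched replicate 1 and with probe sets averaged, and was 2 higher and 4 lower when arrays were quantile normalized again or aligned by cyclic loess. Of 18 matrix and growth factor partners 2 rose and 4 fell (median -0.04): fibronectin (Fn1) rose by 1.22 (SE 0.08), whereas decorin (Dcn), a ligand of Ccn4, fell by 1.50 (SE 0.12), Igf1 fell by 1.90 (SE 0.18) and Vegfa, which Ccn2 can bind, fell by 0.47 (SE 0.10). Of 16 proteases listed for cutting CCN proteins, 3 rose and 1 fell (median -0.02): Adamts4 rose by 0.74 (SE 0.09), Adamts1 by 0.70 (SE 0.10) and Bmp1 by 0.66 (SE 0.09), while the gelatinase Mmp2 fell by 0.50 (SE 0.08).

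Upstream of Ccn1 and Ccn2, 6 of 21 Hippo, YAP and TEAD components rose and 1 fell (median 0.15). The TEAD cofactor Vgll3 rose by 1.34 (SE 0.10), the Hippo kinase gene Stk4 by 1.00 (SE 0.12), Taok1, a kinase acting on it, by 0.41 (SE 0.09) and the YAP paralog Wwtr1 (TAZ) by 0.37 (SE 0.10). The Taok1 call ended without stretched replicate 1 (limma adjusted p = 0.0513) and with probe sets averaged (0.433). That of Wwtr1 ended without unstretched replicate 1 (0.0529) or 2 (0.0886), without stretched replicate 1 (0.111) or 2 (0.0755), when quantile normalized again (0.0765) and with cyclic loess (0.0537). The 7 calls of this list fell to 4 without unstretched replicate 1 and to 3 without stretched replicate 1 or 2, and were 3 higher and 2 lower in both of those scalings. YAP and TEAD targets other than the CCN genes gave 5 rises and 2 falls among 22 (median 0.05; 4 and 3 in both scalings, 6 and 1 with arrays centred on their medians, and 4 calls in all without unstretched replicate 1, stretched replicate 1 or stretched replicate 2). Among them Fjx1 fell by 0.74 (SE 0.09) and tissue factor (F3) rose by 0.94 (SE 0.14), Dlc1 by 0.94 (SE 0.17) and Asap1 by 0.47 (SE 0.10).

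Of 22 SRF factors and targets 12 rose and 2 fell (median 0.42). Filip1l rose by 1.86 (SE 0.09), Fosl2 by 0.96 (SE 0.09) and calponin 1 (Cnn1) by 0.85 (SE 0.09), and Egr1 fell by 1.47 (SE 0.13). Among the 22 immediate early genes, the class that Ccn1 belongs to, 8 rose and 5 fell (median 0.04), and Egr1 and Egr2 (log2 change -1.10, SE 0.10) were among the falls, with Ier5 rising by 0.79 (SE 0.08). The 5 lower calls became 3 without unstretched replicate 1 or 2 or stretched replicate 1 or 3. In the TGF-beta and Smad list 9 of 25 rose and none fell (median 0.08; limma, 0 lower calls, but 8 higher and 1 lower without unstretched replicate 2), with Ltbp1 up by 2.94 (SE 0.10), Fst by 2.23 (SE 0.08), Fn1 as above and Inhba by 0.67 (SE 0.11). Of 38 Wnt genes, the pathway after which Ccn4 and Ccn5 were first named, 3 rose and 3 fell (median -0.04). These calls were 15.8% of the list, near the 14.7% of all genes. With arrays centred on their medians 4 rose and 2 fell, and in the quantile and cyclic loess scalings 2 rose and 3 fell. Wnt7a rose by 0.71 (SE 0.09), Wnt7b by 0.56 (SE 0.09), Wnt5a fell by 0.91 (SE 0.10) and Rnf43, a feedback inhibitor, fell by 0.37 (SE 0.08).

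Secreted proteins that share a module with the family gave 8 rises and 2 falls among 30 (median 0.03), and 6 calls without unstretched replicate 2 or stretched replicate 3. The 8 higher calls became 5 in each fit with an array left out other than unstretched replicate 3. The thrombospondin-repeat proteases Adamts5 and Adamts1 rose by 0.95 (SE 0.11) and by 0.70 (SE 0.10), and Bmper, which carries von Willebrand type C repeats, rose by 0.87 (SE 0.12). Igfbp5, an IGF-binding protein, fell by 0.93 (SE 0.14). With all probe sets of a gene averaged, several changes given above were smaller though still called: 1.03 for Ltbp1, 0.37 for Inhba, -0.68 for Dcn, -0.45 for Fjx1, 0.44 for Dlc1, 0.58 for Fosl2, 0.33 for Wnt7a and -0.52 for Igfbp5. Of the genes named from these lists, Ltbp1, Egr2, Bmper and Rnf43 lay below the median gene, with means of 5.69, 4.23, 4.92 and 4.73. Their signal over background is unknown.

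**Figure D5:**
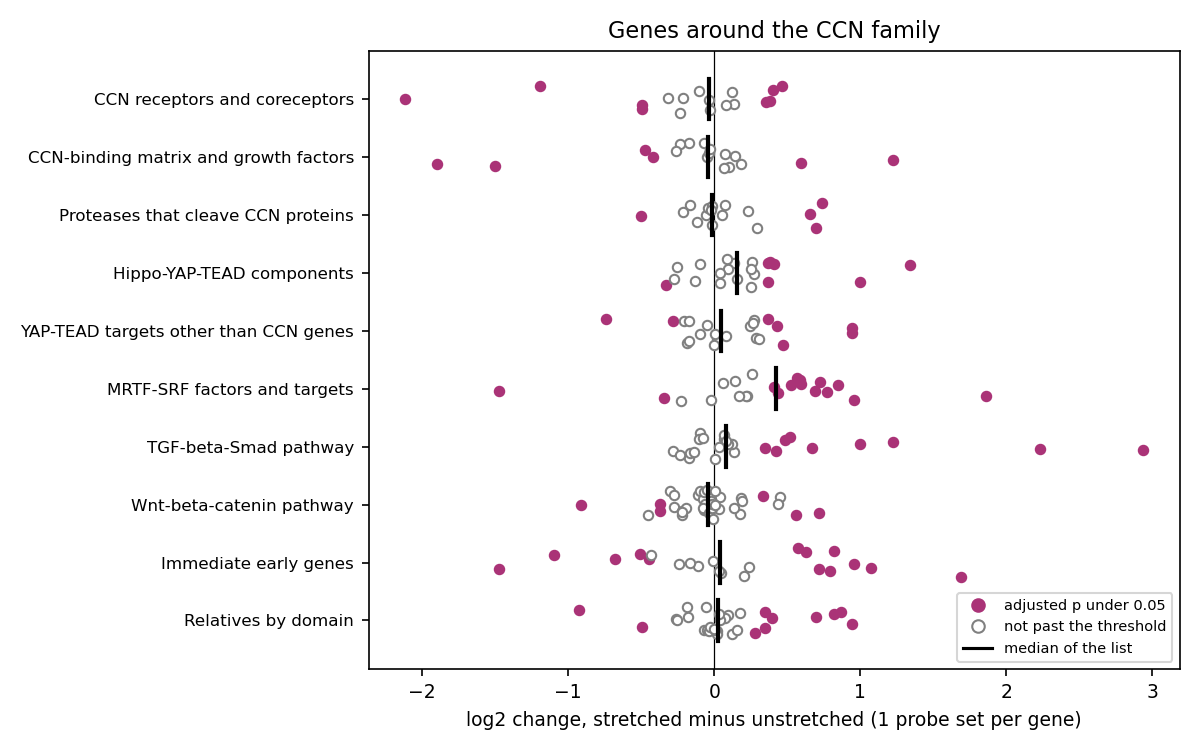
Log2 change (horizontal axis, stretched minus unstretched, 1 probe set per gene) of each gene in the 10 lists around the CCN family. Filled points passed an adjusted p under 0.05, open points did not, and the black bar is the median of the list. The list of SRF factors and targets has the highest median, 0.42, and the receptor list holds calls on both sides of 0.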

How the data were processed

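Total RNA of 6 samples was labelled as biotinylated cRNA and read on Affymetrix mouse arrays, per the labels' protocols. Each deposited value is a log2 expression level for 1 probe set on 1 array, which the authors made with RMA, per the submitters' processing notes. RMA ordinarily corrects background, quantile normalizes and summarises probes, which compresses changes of dim probe sets and can hide a global rise or fall. Its version is not given in the sources used here, nor is a genome build, and no detection calls were used. The number of arrays limits precision.

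Groups and replicate numbers came from the sample titles. Of 45101 probe sets 64 controls were left out; 34945 had 1 gene symbol in the platform annotation, 932 several, and 9160 stay unnamed. In R 4.3.3, limma 3.58.1 (lmFit, eBayes, no covariates, Benjamini-Hochberg adjustment) compared the groups over all 45037 probe sets, and again over 18193 genes taking the brightest probe set of each. Single values used two-sided exact permutation tests. Scripts were checked on simulated data. Named genes were all family probe sets, the called genes of each list with the largest moderated statistics (up to 4), and the 3 nearest profiles per member, predicted transcripts left out. Called neighbours on the chromosome, and the comparison of Ccn1 probe sets, were chosen after their values were seen. The members and lists were chosen with earlier results of these data known. Alternatives were a replicate block, each array left out, other scalings, a filter on dim probe sets, other uses of probe sets and another prior.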

Additional observations from a re-analysis of the deposited data

How the results depend on the processing

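Calls over all probe sets numbered 4942, and 2726 to 4669 with an array left out. Family calls numbered 4, and 1 to 5 with an array left out. The fit with 1 probe set per gene leaves fewer features and made 2681 calls, 2 of them in the family. Its calls numbered 1661 to 2639 with an array left out, and were 54.2% higher as deposited, 42.7% when quantile normalized again and 61.8% with arrays centred on their medians. The same-numbered arrays deviated together with correlations of 0.02, 0.10 and 0.27, so the numbers were not taken as pairs. With the replicate block, 5795 probe sets and 5 of the family were called, 1448594_at of Ccn4 being added (adjusted p = 0.0308). The brightest Ccn1 probe set ranged from 0.24 to 0.68 with an array left out, and the mean of all Ccn1 probe sets was -0.21. Ccn2 ranged from -0.0084 to 0.59. Ccn3 ranged from -0.54 to -0.33, and was -0.42 with arrays centred on their medians, -0.40 when quantile normalized again, -0.40 with cyclic loess, -0.43 without both replicate 3 arrays and -0.31 with probe sets averaged, no longer called in these. Ccn5 was called in each setting. The excess of Ccn1 over Ccn2 was 0.16, and -0.53 with probe sets averaged and -0.13 to 0.31 with an array left out; that over Ccn4 became -0.53 with probe sets averaged. That of Ccn2 over Ccn4 ran (0.0037 with probe sets averaged) from -0.16 to 0.21. The changes of Klf5 ran from -0.21 to 0.30 and of Gtpbp10 from -0.0125 to 0.42 with an array left out. Beyond the values given with the results, causes were not tested. Signal over background is unknown and limits Ccn3 and Ccn6 most.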
